A study of Mus musculus with 14 samples.

Results

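The genes described here are the protein-coding mouse genes whose symbol is Zfp followed by 3 digits, the first of them 9. They were chosen by name and biotype alone, in the deposited tables of 12 mammary tumours, and 56 such genes were found among 21292 protein-coding genes. Each of the 56 symbols was paired with a single Ensembl gene in the tables. Another 328 protein-coding genes with a Zfp symbol served as the closest comparison. The symbol Zfp says only that a protein is predicted to hold zinc fingers, and the numbers run in order of naming, so the range is not a family defined by descent.

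Zinc finger proteins of this kind read DNA with a row of C2H2 fingers, each of which contacts a few bases. Many of the rodent genes in this range also encode a KRAB domain, which recruits the corepressor Trim28 and through it the histone methyltransferase Setdb1, and the best known role of such proteins is to silence transposable elements. Zfp932, for example, represses endogenous retroviruses in mouse embryonic stem cells. Genes of this type multiply by tandem duplication, so that near-identical neighbours lie side by side.

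All 12 tumours grew from p53null Balb/c mammary fragments, that is, tissue without the tumour suppressor p53. In the gel experiment, a gel of rat tail collagen 1 with 20% basement membrane extract was placed in a cleared mammary fat pad of mice aged 3 to 4 weeks before a fragment from a donor aged 8 to 10 weeks was implanted. The collagen had stood in acetic acid for 10 to 14 days, with 500 mM L-ribose for the stiff gel (tumours A7, A8 and A9) and with none for the soft gel (A1, A2 and A3). In the host experiment, the fragments were placed in LysM-Cre hosts. Their Cre works in the host's myeloid cells and not in the implanted epithelium, and the hosts were knockout for Gpx4 (KO; B4, B5 and B6) or wild type for it (WT; B1, B2 and B3). Gpx4 is a peroxidase that removes lipid peroxides. Mice were killed when the tumour reached 2 cm, and exons were captured from tumour DNA and sequenced.

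The values are whole-number counts of predicted variants per gene. HIGH impact covers frameshifts, gained stops and the like, MODERATE mostly missense changes, LOW mostly synonymous changes, and MODIFIER variants in introns, untranslated regions and flanks. Protein-altering variants are the sum of HIGH and MODERATE. The tables give no position, read depth or allele fraction. Whether a variant was inherited or acquired, and whether equal counts in different tumours are the same variants, therefore cannot be told from them, and the depth behind each count is unknown. Counts were not divided by gene length. Over all protein-coding genes the tumours held between 8316 and 16536 protein-altering and between 334408 and 695281 MODIFIER variants, with the lowest totals of both kinds in B5 and the next lowest in A9.

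Of the 56 genes, 55 could be placed with the RefSeq gene table of build GRCm38.p6. Chromosomes 4 and 17 each held 13, chromosome 7 held 8, chromosome 2 held 6, chromosome 8 held 5, chromosome 13 held 3 and chromosome 5 held 2, with 1 each on chromosomes 6, 9, 10, 14 and 19. Zfp989 was not matched. The 13 genes of chromosome 4 lay within a run of 18 protein-coding genes, while those of chromosomes 17, 7, 8 and 2 were spread over runs of 733, 1802, 473 and 375 protein-coding genes.

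Upstream sequence shows how alike some of these genes are near their start. Exons and introns were not compared, so the windows do not show how far reads could be assigned to a single gene. Windows of 300 bases around the gene start were in the RefSeq promoter table (GRCm38.p6) for 48 of the 56 genes. The 2 pairs shown are printed 5′ to 3′ as the 250 bases before the start, in lower case, with capitals only at aligned positions where the pair differs. Zfp967 (chr2:176520754-176521003, plus strand) and Zfp970 (chr2:177464492-177464741, plus strand) were chosen because they held almost no variants of any kind.
Zfp967: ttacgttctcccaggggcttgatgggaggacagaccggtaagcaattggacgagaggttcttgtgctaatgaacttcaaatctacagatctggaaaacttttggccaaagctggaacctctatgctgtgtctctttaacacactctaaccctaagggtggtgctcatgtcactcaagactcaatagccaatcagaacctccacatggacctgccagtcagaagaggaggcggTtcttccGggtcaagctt
Zfp970: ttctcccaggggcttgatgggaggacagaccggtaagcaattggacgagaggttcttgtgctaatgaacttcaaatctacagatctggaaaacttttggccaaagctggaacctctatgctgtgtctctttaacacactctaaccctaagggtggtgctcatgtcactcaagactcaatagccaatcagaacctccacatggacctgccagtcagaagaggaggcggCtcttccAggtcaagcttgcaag
Zfp944 (chr17:22361401-22361650, minus strand) and Zfp942 (chr17:21962465-21962714, minus strand) are shown because Zfp944 was one of the genes whose counts differed between the experiments.
Zfp944: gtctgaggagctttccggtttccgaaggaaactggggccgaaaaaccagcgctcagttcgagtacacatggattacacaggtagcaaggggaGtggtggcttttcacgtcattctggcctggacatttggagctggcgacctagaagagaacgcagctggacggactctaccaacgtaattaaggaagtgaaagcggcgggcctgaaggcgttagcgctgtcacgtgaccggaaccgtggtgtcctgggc
Zfp942: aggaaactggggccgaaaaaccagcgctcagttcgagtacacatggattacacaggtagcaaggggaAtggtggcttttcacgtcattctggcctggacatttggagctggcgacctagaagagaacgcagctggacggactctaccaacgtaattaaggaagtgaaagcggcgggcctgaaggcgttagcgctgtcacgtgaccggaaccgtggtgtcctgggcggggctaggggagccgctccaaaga
The windows of Zfp967 and Zfp970 differed at 2 of 245 aligned bases, and those of Zfp944 and Zfp942 at 1 of 225. Over the full windows of 300 bases, the identity of Zfp970 with Zfp971 was 97.6%, that of Zfp931 with Zfp971 97.0% and that of Zfp987 with Zfp988 96.2%.

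Such sharing was also counted over all genes. In 14 of the 48 genes (29.2%), at least 50% of the 31-base words of the window also occurred in the window of another gene, on either strand. The same held for 11.2% of 269 other Zfp genes with a window and for 12.8% of 16413 protein-coding genes, where overlapping windows of neighbouring genes count too. Among the 48 genes, the share of such words and the mean MODIFIER count over the tumours had a Spearman rho of -0.10, a description over genes that share libraries and neighbours. The median of that mean count was 9.46 in the 14 genes with at least 50% of shared words and 13.5 in the other 34, and the ranges of the 2 sets overlapped widely, from 0.0833 to 75.8 and from 0.333 to 107. Low counts occurred at both ends of the scale. Zfp967 and Zfp970, with 100.0% of shared words, held 1 and 7 MODIFIER variants over the tumours, and Zfp952, with 0.0%, held 4. Zfp942 averaged 28.2 MODIFIER variants per tumour, and Zfp944, with a nearly identical upstream window, averaged 10.2. Counts of genes with near-identical copies are uncertain, since how reads that match several copies were treated is not given in the sources used here.

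Protein-altering variants were found in 32 of the 56 genes (57.1%) in at least 1 tumour, against 67.4% of the other Zfp genes and 55.5% of all protein-coding genes. None of the 56 carried such a variant in all 12 tumours, against 37 of the 328 other Zfp genes (11.3%) and 7.48% of all protein-coding genes. Per gene and tumour the count was 0.315 in these genes, 0.826 in the other Zfp genes and 0.542 over all protein-coding genes. Mean MODIFIER counts differed far less between these sets, at 20.7, 21.2 and 21.6 per gene and tumour. This held for means only. The median MODIFIER sum of a gene over the tumours was 160.5 in these genes and 60.5 in the other Zfp genes. It was lower still over all protein-coding genes. The median protein-altering sums were 1.0 in these genes, 2.0 in the other Zfp genes and 1.0 over all protein-coding genes. No gene of the 56 had a HIGH impact variant in all 12 tumours. The number of altered genes per tumour ranged from 4 of 56 in A9 to 17 of 56 in B6.

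**Figure D1:**
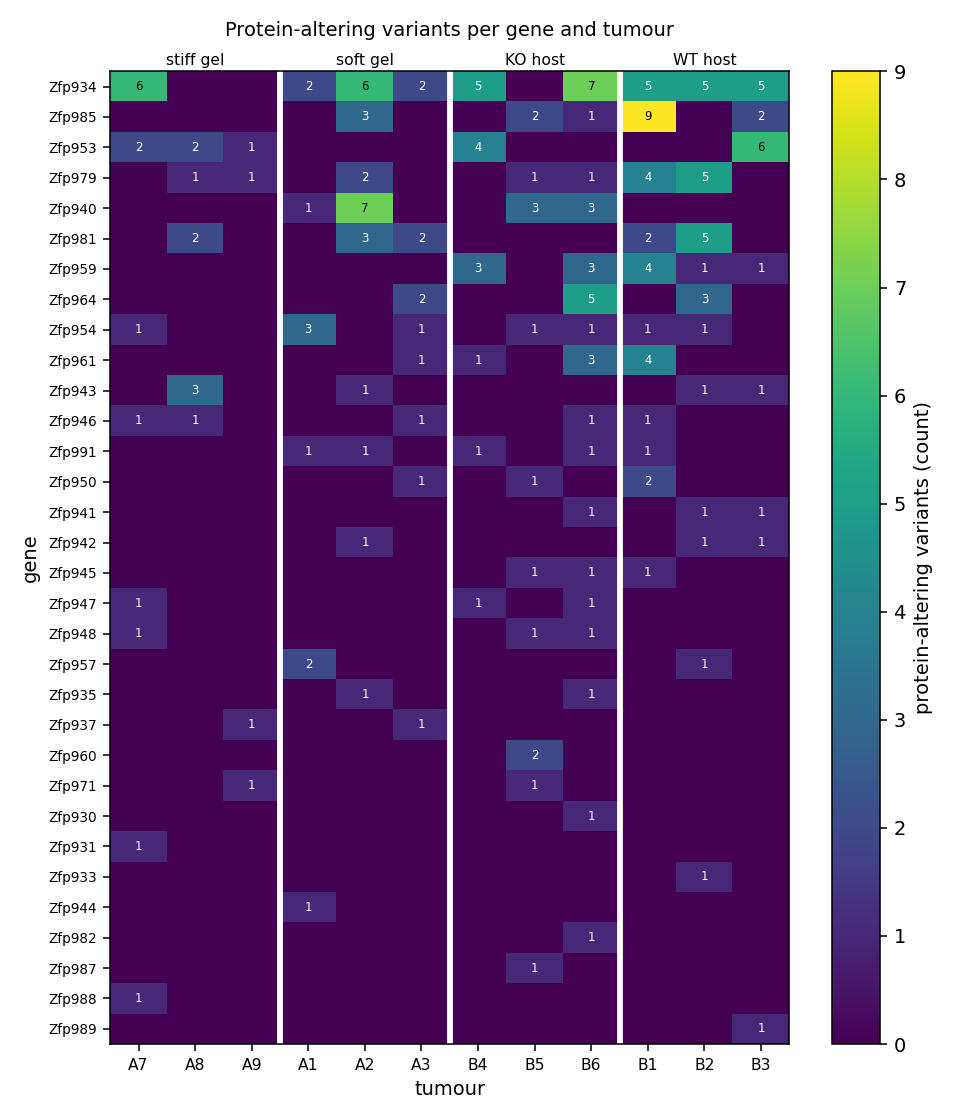
Protein-altering variants (count, printed in the cell where above 0) in the 32 genes that had any, by gene (rows, highest sum at the top) and tumour (columns, by group). Zfp934 is the only row filled in 9 tumours, and 9 of the 32 rows are filled in a single tumour.

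The 212 protein-altering variants were spread unevenly, with 43 of them (20.3%) in Zfp934 and 74.5% in the 10 genes with the highest sums. By type, 153 missense changes, 44 frameshifts, 7 gained stops and 3 lost starts were listed, beside inframe changes and 1 splice donor change. These types overlap and need not sum to 212. A variant that is missense in a given transcript and of another type in another can count under both. Zfp942 had 1 frameshift and 1 lost start in each of A2, B2 and B3, yet only 3 protein-altering variants over the tumours. There were 142 missense changes for every 100 synonymous ones in the 56 genes, against 131 in the other Zfp genes and 128 over all protein-coding genes. HIGH impact variants made up 24.1% of the protein-altering count, against 22.5% in the other Zfp genes and 27.2% over all genes.

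Zfp934, on chromosome 13, held the most protein-altering variants. It had 6, 0 and 0 in the stiff tumours A7, A8 and A9, 2, 6 and 2 in the soft tumours A1, A2 and A3, 5, 0 and 7 in the KO host tumours B4, B5 and B6, and 5 in each of the WT host tumours. The gene was free of them only in A8, A9 and B5. The counts comprised 36 missense changes over 9 tumours and 1 frameshift in each of 7 tumours. In each WT host tumour the 5 variants were 4 missense changes and 1 frameshift, as they were in B4. Zfp935, which lies beside it on the chromosome, had 2 protein-altering variants in all, although it averaged 107 MODIFIER variants per tumour, above the 77.0 of Zfp934.

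Several genes of the chromosome 4 cluster followed. Zfp985 had 0, 0 and 0 in stiff and 0, 3 and 0 in soft tumours, 0, 2 and 1 in KO host and 9, 0 and 2 in WT host tumours. The 9 variants of B1 included 5 missense changes, 3 frameshifts and 1 splice donor change, the highest count of any of the 56 genes in a tumour. Zfp979 had 0, 1 and 1 in stiff and 2 in a single soft tumour, A2, 0, 1 and 1 in KO host and 4, 5 and 0 in WT host tumours. Of its 15 variants 14 were missense. Zfp981 had 0, 2 and 0 in stiff and 0, 3 and 2 in soft tumours, none in any KO host tumour, and 2, 5 and 0 in WT host tumours. Frameshifts dominated Zfp981, with 11 over 5 tumours beside 2 gained stops in B2 and no missense change in the tables.

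Outside chromosome 4, Zfp940 on chromosome 7 had 14 protein-altering variants in 4 tumours. It had 0, 0 and 0 in stiff and 1, 7 and 0 in soft tumours, 0, 3 and 3 in KO host and 0, 0 and 0 in WT host tumours. Its synonymous variants were also absent from all WT host tumours, with 1 in A9, 4 in A2 and 2 in each of A1, A3, B5 and B6. Zfp959 on chromosome 17 had none in any of the 6 gel tumours, against 3, 0 and 3 in KO host and 4, 1 and 1 in WT host tumours. Zfp964 and Zfp961 on chromosome 8 reached their highest counts in the host tumours, with 5 of Zfp964 in B6 and 4 of Zfp961 in B1, and neither had any in a stiff tumour. Zfp954 on chromosome 7 had 9 variants over 7 tumours, of which 6 were single frameshifts in A7, A1, A3, B6, B1 and B2.

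The other end of the range was also populated. In 17 genes no variant of HIGH, MODERATE or LOW impact was listed in any tumour. These were Zfp936, Zfp949, Zfp951, Zfp952, Zfp956, Zfp958, Zfp963, Zfp967, Zfp972, Zfp975, Zfp976, Zfp977, Zfp984, Zfp990, Zfp992, Zfp993 and Zfp995. Another 7 genes had LOW impact variants only. Zfp983 was the clearest of these, with 2 or 3 LOW variants in each of 10 tumours and none in A3 and B4. In each of the 10 tumours these included 1 splice-region variant and 1 start codon gain in the 5′ untranslated region. Only A8 had a synonymous change. Zfp943 had at least 1 LOW variant in all 12 tumours, 2 in B3 and 1 in each of the others. In every tumour 1 of them was a splice-region variant, and the only synonymous change was in B3. Zfp943 was the only one of the 56 genes with a HIGH, MODERATE or LOW impact variant in every tumour. Over all protein-coding genes the share was 10.3%.

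The first comparison, stiff against soft gel, asks how the tension of the tissue relates to the variants of the tumour. Summed over the 56 genes, stiff tumours held 14, 9 and 4 protein-altering variants and soft tumours 10, 25 and 11, with means of 9.0 ± 5.0 and 15.3 ± 8.4 (SD, n = 3 each). The groups overlapped, and the difference of -6.33 was smaller than the SD of the soft group. Only 9 of the 56 genes reached the sum of 3 over the 6 tumours that was required for a test. None of the 9 passed edgeR's quasi-likelihood test at an adjusted p of 0.05, as did 0.0% of the 4311 genes tested. Before adjustment 106 genes had a p under 0.05, Zfp953 among them, and DESeq2 called 0 genes.

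Zfp953, on chromosome 13, was the one gene whose groups did not overlap. It had 2, 2 and 1 protein-altering variants in the stiff tumours, all missense, against 0, 0 and 0 in the soft tumours. Its edgeR p was 0.00987 before and 1.0 after adjustment over all genes. It reached the sum of 3 required for a test through the stiff tumours alone. Neither its unadjusted p nor its lack of overlap is therefore support for a difference. Non-overlap in this direction was seen in 1.18% of all genes tested and in 1 of the 9 genes here. Non-overlap with stiff lower was seen in 2.69% of all genes and in 0 of the 9. In the host experiment Zfp953 had 4 in B4, 6 in B3 and none in the other 4 tumours. With 3 tumours in each group, an exact permutation test of one gene cannot give a p below 0.1.

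The second comparison, KO against WT hosts, concerns loss of Gpx4 in the myeloid cells of the host. KO host tumours held 15, 14 and 33 protein-altering variants over the 56 genes and WT host tumours 34, 25 and 18, with means of 20.7 ± 10.7 and 25.7 ± 8.0 (SD, n = 3 each). The difference of -5.0 was smaller than either SD. The whole tumour totals were also lower in KO hosts, and after each tumour was scaled to its total the difference was 0.11. None of the 14 genes tested passed edgeR's adjusted p of 0.05, as did 0.0% of 5308 genes. Before adjustment 199 genes and none of the 14 had a p under 0.05, and DESeq2 called 0 genes. No gene of the 56 had groups without overlap, against 0.735% of all genes with KO higher and 4.26% with KO lower. The genes with the largest differences of means were Zfp985, Zfp981 and Zfp979, at -2.67, -2.33 and -2.33 variants, KO minus WT, and Zfp940, at 2.0. The groups of all 4 overlapped.

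The third comparison sets the 6 gel tumours against the 6 host tumours. These differ in hosts, in the gel and in handling at once, so no single factor can be told apart. Gel tumours averaged 12.2 ± 7.1 and host tumours 23.2 ± 8.9 protein-altering variants over the 56 genes (SD, n = 6 each), a difference of -11.0. The stiff tumour A7, with 14, and the soft tumour A2, with 25, lay within the host range of 14 to 34. Of 20 genes tested, none passed edgeR's adjusted p of 0.05, as did 0.0% of 6829 genes. Zfp959, absent from all gel tumours, had an edgeR p of 0.0166 before and 0.648 after adjustment, and 413 of all genes had an unadjusted p under 0.05. Zfp959 reached the sum required for a test through the host tumours alone, so its unadjusted p is no support for a difference. DESeq2 called 5 of all genes and none of the 56. No gene of the 56 had groups without overlap in either direction, against 0.0% of all genes with gel higher and 0.205% with gel lower. Among the 20 genes tested the median log2 fold change was -0.85, with 14 lower and 6 higher in gel tumours, beside a median of -0.34 over all genes tested.

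**Figure D2:**
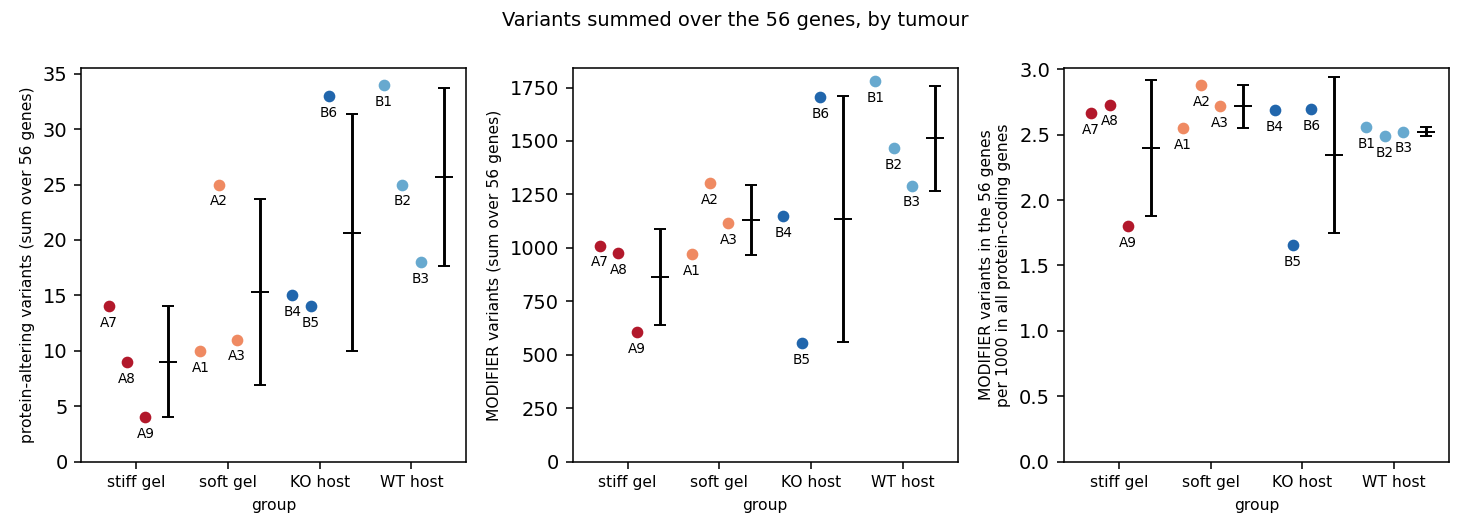
Variants summed over the 56 genes in each tumour (points, labelled) by group, as protein-altering count (left), MODIFIER count (middle) and MODIFIER count per 1000 in all protein-coding genes (right), with the mean and SD of each group (bars, n = 3). In the right panel 10 tumours lie between 2.49 and 2.88 and A9 and B5 lie at 1.80 and 1.65.

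Because the protein-altering counts were sparse, the MODIFIER counts of the same genes were examined too, a choice made after the counts were seen. All 56 genes had a MODIFIER variant in at least 1 tumour and 37 (66.1%) had one in all 12, against 53.9% of all protein-coding genes. The sums over the tumours ran from 1 in Zfp967 to 1289 in Zfp935. By type, intron variants were the most frequent with 9077, followed by 3083 downstream, 1709 upstream and 981 in 3′ untranslated regions. A variant in the flank of a neighbouring gene counts in both genes. The 6 genes of chromosome 2 held 1.18 MODIFIER variants per gene and tumour, against 26.8 for the 13 of chromosome 4, 14.7 for the 13 of chromosome 17 and 80.6 for the 3 of chromosome 13.

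Summed over the 56 genes, MODIFIER counts were 1010, 974 and 604 in stiff and 972, 1303 and 1116 in soft tumours, and 1149, 553 and 1706 in KO host and 1779, 1467 and 1291 in WT host tumours. As a share of all MODIFIER variants in protein-coding genes, 10 of the 12 tumours lay between 2.49 and 2.88 per 1000. The stiff tumour A9 had 1.80 and the KO host tumour B5 1.65 per 1000. These 2 tumours thus stood apart in these genes by more than their low totals.

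Low counts in A9 and B5 were seen in several chromosome groups. The 13 genes of chromosome 4 summed to 364, 314 and 108 MODIFIER variants in stiff and 323, 358 and 388 in soft tumours, and to 353, 122 and 442 in KO host and 623, 454 and 329 in WT host tumours. Zfp987 had 1 in A9 and 5 in B5, against 26 to 46 in the other 10 tumours. Zfp933 had 8 in A9 and 9 in B5, against 29 to 48 elsewhere. On chromosome 13 the 3 genes summed to 181, 205 and 93 in stiff and 191, 300 and 226 in soft tumours, and to 277, 74 and 360 in KO host and 362, 315 and 317 in WT host tumours. The 2 genes of chromosome 5 summed to 69, 61 and 45 in stiff and 68, 118 and 73 in soft tumours, and to 62, 17 and 168 in KO host and 91, 113 and 112 in WT host tumours. A9 and B5 held the lowest sums in all 3 of these groups. They also did so on chromosome 17, with 115 and 128 in a range of 115 to 316. Other groups differed. On chromosome 2 A9 held the highest sum, 14, and B5 held 10, in a range of 3 to 14. On chromosome 7 A9 held 88 and B5 the lowest sum, 48, in a range of 48 to 96. On chromosome 8 A9 held 62 and B5 80, in a range of 54 to 183. Among the chromosome 4 genes, A9 alone was lowest in 6 of the 13 genes (46.2%) and B5 alone in another 6 (46.2%), whereas over all protein-coding genes each was the single lowest tumour in 9.73%. Counted only over genes with a single lowest tumour, these shares were 50.0% each in the 12 such chromosome 4 genes and 21.1% each in the 9808 such genes overall. Some of the genes around them also had low counts in these tumours. Of the 4 other genes that lie between the chromosome 4 members, A9 was the lowest tumour in 2 and B5 in 1. A9 was lowest in 22.0% and B5 in 20.0% of the 50 protein-coding genes that follow, and in 10.0% and 16.7% of 30 genes that precede them. The 10.0% of A9 is near its 9.73% over all genes. Counted only over genes with a single lowest tumour, the shares were 32.35% and 29.41% of 34 genes that follow. They were 30.0% and 50.0% of only 10 genes that precede. On chromosome 17 A9 was the single lowest in 2 of 13 genes, and so was B5. In Zfp957 on chromosome 14 and in Zfp942, A9, with 33 and 28, lay inside the range of the other tumours, and B5, with 25 and 17, was again the lowest. What sets A9 and B5 apart here was not tested.

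**Figure D3:**
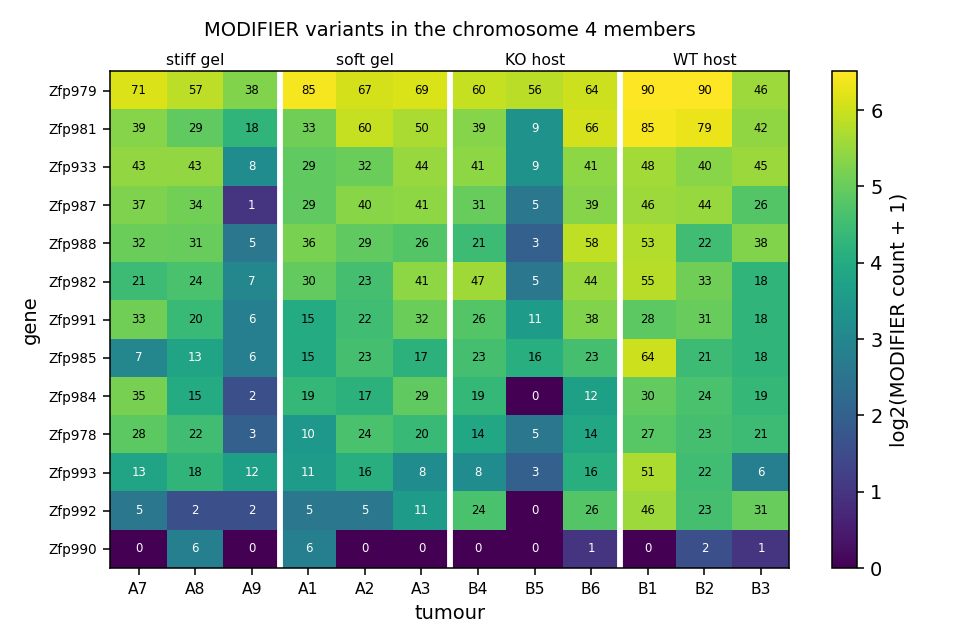
MODIFIER counts (printed in each cell; colour is log2 of the count plus 1) of the 13 chromosome 4 genes, by gene (rows) and tumour (columns, by group). The columns of A9 and B5 are the darkest in most rows, with sums of 108 and 122 against 314 to 623 in the other tumours.

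With MODIFIER counts, 0.0% of 19505 genes and 0 of 55 of these genes passed edgeR's adjusted p of 0.05 between stiff and soft tumours, with 1596 genes and 5 of the 55 under an unadjusted p of 0.05, and DESeq2 called 53 genes and none of the 55. Zfp935, Zfp949, Zfp950, Zfp951 and Zfp985 were lower in every stiff than in every soft tumour, 5 of 55 (9.09%) against 8.13% of all genes. Zfp970 was higher in every stiff tumour, 1 of 55 against 1.73%. These shares are near those of all genes. Zfp935 had 74, 79 and 29 in stiff and 99, 133 and 123 in soft tumours, with an edgeR adjusted p of 0.514.

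Between KO and WT hosts, 0.0% of 19312 genes and 0 of 53 of these genes passed edgeR's adjusted p of 0.05 on MODIFIER counts, with 891 genes and 2 of the 53 under an unadjusted p of 0.05, and DESeq2 called 19 genes and none of the 53. Zfp943, Zfp944, Zfp949 and Zfp978 were lower in every KO than in every WT host tumour, 4 of 53 (7.55%) against 6.84% of all genes. Zfp944 had 8, 10 and 17 in KO and 25, 20 and 18 in WT host tumours, with an edgeR adjusted p of 0.858.

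Between the experiments, 5.57% of 20737 genes passed edgeR's adjusted p of 0.05 on MODIFIER counts, and 2 of these 55 genes did, Zfp944 and Zfp992, both lower in gel tumours. In that direction 5.28% of all genes passed, so the share of 2 in 55 is near the background. Zfp944 had 2, 2 and 2 in stiff and 2, 13 and 4 in soft tumours, and 8, 10 and 17 in KO host and 25, 20 and 18 in WT host tumours. A2 was the only gel tumour that reached the host range. The log2 fold change was -2.09 (SE 0.41) and the edgeR adjusted p 0.0156. Zfp942, with a nearly identical upstream window, had 23, 23 and 28 in stiff and 28, 28 and 20 in soft tumours. It had 26, 17 and 37 in KO host and 48, 27 and 34 in WT host tumours. These groups overlapped throughout.

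Zfp992 had 5, 2 and 2 in stiff and 5, 5 and 11 in soft tumours, and 24, 0 and 26 in KO host and 46, 23 and 31 in WT host tumours. The 5 host tumours other than B5 all lay above every gel tumour, and B5 had none. The log2 fold change was -2.33 (SE 0.57) and the edgeR adjusted p 0.0328. Both calls were lost without A9, with edgeR adjusted p values of 0.0524 for Zfp944 and 0.093 for Zfp992, while the log2 fold changes were -2.09 and -2.22. Over all genes the share that passed fell to 0.553% without A9. Without B5 the adjusted p values were 0.00663 and 0.00101, and 7 of the 55 genes passed beside 12.7% of all genes. DESeq2 called 4 of the 55 beside 8.83% of all genes, and edgeR without A9 and B5 called 4 beside 8.81%, so these counts too are near the background. Zfp992 also missed the threshold without any one of A1, A2, A3, A8, B1, B4 or B6, with adjusted p values between 0.0549 and 0.088.

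**Figure D4:**
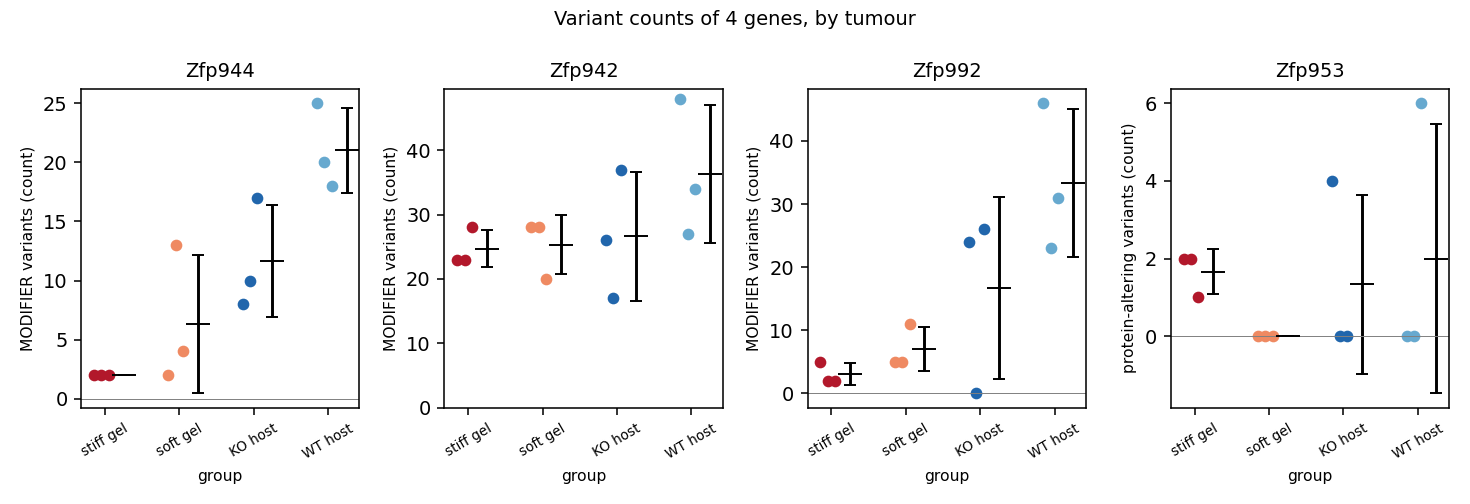
Counts in each tumour (points) by group, with the mean and SD of the group (bars, n = 3), of MODIFIER variants in Zfp944, Zfp942 and Zfp992, and of protein-altering variants in Zfp953. Zfp944 and Zfp992 are low in the gel groups except for A2 in Zfp944, Zfp942 overlaps in all groups, and Zfp953 is above 0 in all 3 stiff and in no soft tumour.

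Of the 55 genes tested between the experiments, 39 were lower and 15 higher in gel tumours, with a median log2 fold change of -0.32 beside -0.20 over all genes. Before adjustment 12 were lower at an edgeR p under 0.05 (21.8%), against 18.6% of all genes. The direction depended on the scale. After each tumour was scaled to its total, the medians were 0.15 for these genes and 0.23 over all genes, and edgeR passed 3 of the genes, Zfp944 and Zfp992 lower and Zfp954 higher in gel tumours, beside 3.49% of all genes. Only Zfp964 was lower in every gel than in every host tumour, 1 of 55 against 0.646% of all genes. It had 14, 4 and 14 in stiff and 15, 14 and 11 in soft tumours, against 20, 17 and 51 in KO host and 41, 16 and 19 in WT host tumours, with an edgeR adjusted p of 0.0733.

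Genes linked to repression by KRAB zinc finger proteins, with the zinc finger gene Zfp57 among them, were examined as a list of 39 symbols, of which 37 were found. The symbols not found were Fam208a and 2810474O19Rik. At least 1 protein-altering variant was listed in 27 of the 37, against 55.5% of all protein-coding genes. The mean was 1.03 per gene and tumour, against 0.542 over all protein-coding genes. Much of the sum lay in a few genes, with 83 over the tumours in Chd4, 67 in Mta1, 56 in Hdac1 and 43 in Atf7ip. Trim28, the corepressor itself, had 1 in each of 7 tumours and none in the others. Setdb1, which methylates histone H3, had 1 in each of A2, B5 and B6. Chd4 and Mta1 had variants in all 12 tumours, between 5 and 9 and between 5 and 7. Chd3, Hdac1, Mta2, Atf7ip and Ehmt2 also had variants in all 12. Hdac2, Mta3, Rbbp4 and several others of the list had none in any tumour. The list summed to 34, 38 and 46 in stiff and 36, 35 and 33 in soft tumours, and to 36, 29 and 43 in KO host and 46, 40 and 42 in WT host tumours. A9, which had the lowest sum over the 56 zinc finger genes, shared the highest sum of this list with B1. None of the list's genes passed edgeR's adjusted p of 0.05 among 13 tested between stiff and soft, 14 between KO and WT hosts and 17 between the experiments, with unadjusted p values under 0.05 in 0, 1 and 0 of them. DESeq2 called none of them in any of the 3 comparisons.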

How the data were processed

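Tables of variant counts per transcript, written by snpEff per the file headers and deposited by the authors for 12 tumours, were used. These counts are whole numbers with no normalization. The submitters' processing notes name the build GRCm39 and the tools GATK, BWA 2.2.1 and SAMtools 1.19.2. For every sample a read length of 150 bp, a minimum depth of 50x and a yield of 6 Gb were stated. Caller settings and filters were not stated, and 2 tail samples were not analysed here.

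A gene's count per impact class was the maximum over its protein-coding transcripts, with unlisted transcripts taken as 0. Genes with a sum of at least 3 were tested with edgeR 4.0.16 (quasi-likelihood, equal library sizes, Benjamini-Hochberg over all genes, 0.05); DESeq2 1.42.0 served as the alternative tool. The SE was derived by dividing the size of the log2 fold change by the root of its F statistic and is approximate. Windows were aligned with Biopython 1.88. Labels say only that tumours are separate samples, so p-values measure the spread between them. The genes and lists were chosen with earlier results of these data known. Named genes are the 10 with the highest mean and the 5 with the largest difference per comparison. Those past a threshold or without overlap were named too, as were those with no HIGH, MODERATE or LOW impact variant. Coordinates are those of the RefSeq table, GRCm38.p6, and were not compared with the counts.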

Additional observations from a re-analysis of the deposited data

Results flagged for a closer look

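Zfp939 lies in the same range of names and was left out because its biotype is not protein-coding. As a transcribed unprocessed pseudogene it held 3, 0 and 10 MODIFIER variants in stiff and 20, 18 and 17 in soft tumours, and 19, 28 and 50 in KO host and 37, 61 and 12 in WT host tumours, with the highest count of 61 in B2. Its processed transcript held 6, 7 and 10 in stiff and 28, 34 and 31 in soft tumours, and 42, 47 and 65 in KO host and 71, 73 and 31 in WT host tumours, with the highest count of 73 also in B2. Both were picked out because they show variants outside the protein-coding genes compared, above the 3 counts that a count of 0 allows.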

How the results depend on the processing

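No gene of the 56 was called on protein-altering counts in any comparison under any alternative run: another rule over transcripts, other impact classes, scaling, TMM, DESeq2, other minimum sums, and each tumour left out. The count of genes without overlap, 1 for stiff against soft, was 0 at a sum of at least 10, 3 with LOW impact included, and 1 to 2 with single tumours left out (2 without A7 or A3). For KO against WT hosts it was 0, and became 1 with LOW included and 0 to 2 with single tumours left out (1 without B4, 2 without B3). For gel against host it was 0, and became 1 without A9 and B5 and 0 to 1 with single tumours left out (1 without B5). The sum over the 56 genes kept its sign without any single tumour, at -9.0 to -1.5 for stiff minus soft, -11.2 to -0.833 for KO minus WT and -13.6 to -8.83 for gel minus host. Scaling turned it to 0.105 for KO minus WT, and turned the MODIFIER sum, gel minus host, from -327.7 to 56.4. On MODIFIER counts, gel against host, edgeR called 2 of the genes (5.57% of all genes), DESeq2 4 (8.83%), edgeR without A9 and B5 4 (8.81%), and 0 to 7 with single tumours left out, 1 without any one of A1, A2, A3, A8, B1, B4 or B6, 0 without A9 and 7 without B5. Over all genes 1094 were called lower and 62 higher in gel tumours, 463 and 261 after scaling, 92 and 22 without A9, and 2506 and 110 without B5. Of 165 alternative values for single genes, 163 stayed within the spread; Zfp934, KO minus WT, turned from -1.0 to 1.0 without B5 (range -2.5 to 1.0 with single tumours left out), and Zfp940 moved from 2.0 to 3.33 with LOW included. Where not stated otherwise, the cause was not tested. No paired analysis was possible because the tumours' labels share no replicate numbers between groups. The unknown depth at each variant and the sparse counts limit all of these values.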
